A study of Mus musculus with 10 samples.

Results

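RNA of splicing factor and heterogeneous nuclear ribonucleoprotein (hnRNP) genes was measured in mature sperm and in testes of mice. The genes were taken by name, as those with known mRNA transcripts whose symbols start with Hnrnp, Sf3a, Sf3b or U2af, with Srsf, Rbm or Prpf and a digit, or with Snrp and a digit or a letter from a to g. Snrpn, an imprinted gene, and genes such as Rbmx are thus not among them. The rule used no measured value. It found 104 genes with 132 known mRNA transcripts, among 16063 known mRNA genes and 69553 genes of all transcript classes. By role they were 11 SR proteins, 20 hnRNPs, 10 Snrp proteins, 9 subunits of SF3A and SF3B, 3 U2AF genes, 13 Prpf proteins and 38 Rbm proteins.

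The series held 4 control sperm, 2 control testes, 2 cadmium sperm and 2 cadmium testes samples of C57BL/6 mice aged 3 to 5 months per the labels. Cadmium mice received 1 intraperitoneal injection of CdCl2 at 3 mg/kg, control mice received saline, and each treatment had 50 mice per the labels, which were killed on day 35. The methods of the study, which describe control samples alone, give a younger range of ages and another number of mice. No allele or transgene is given for any group. Sperm came from the vas deferens and cauda epididymis of pooled mice after lysis of somatic cells, ribosomal RNA was removed with RNase H, and libraries were strand-specific. Control sperm replicate 1, which the study left out, is shown but entered no main test. The methods describe the control sperm replicates as separate pools of mice, and the control testes as biological replicates taken from those same mice. Which testes belong to which pool is not given, so the tests treated control sperm and control testes as independent groups. For the cadmium samples the sources used here do not say that they came from separate animals, so p-values there measure the spread between these samples, which may be technical.

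Splicing removes introns from pre-mRNA in the spliceosome, whose U1, U2, U4 and U5 particles each carry a ring of Sm proteins. Snrp genes encode Sm proteins and other proteins of these particles. U2AF recognises the 3′ splice site and SF3A and SF3B, parts of the U2 particle, bind at the branch point, while Prpf proteins act in the particles and in the assembled spliceosome. SR proteins and hnRNPs bind the pre-mRNA and act on which exons are joined, and hnRNPs also act in RNA export, stability and translation. Splicing is extensive in the testis, whereas mature sperm, with condensed chromatin and little cytoplasm, are regarded as transcriptionally silent.

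The total expected count, an estimate of the fragments per sample, was 366455 to 1058017 in control sperm, 1155491 and 1254477 in cadmium sperm, and 2606086 to 2866856 in the 4 testes samples. Known mRNA took 9.14 to 13.6% of it. A share of 3 counts, used as the lowest that a sample can show, was 0.000105 to 0.000819% of a sample. These floors cover counting error only. Control sperm replicate 3 was the shallowest library and stood apart in several genes below. The sperm label was checked against marker genes. The 10 late spermatid and sperm markers summed to 234.26 to 528.03 FPKM (fragments scaled to transcript length and library size) in control sperm replicates 2 to 4, 449.92 to 468.64 in cadmium sperm and 485.06 to 592.41 in testes. Prm2, a protamine that packs sperm DNA, made up most of it in sperm, at 183.72 to 438.21 FPKM in the 6 sperm libraries and 147.34 to 280.94 in testes. The other protamine, Prm1, went the other way, at 0 to 40.12 FPKM in sperm and 117.96 to 135.58 in testes, and Tnp1, a transition protein, was at 0 to 6.21 in sperm and 88.12 to 139.96 in testes. Tnp2, Oaz3, Akap4 and Odf1 were also no higher in any sperm library than in testes of control mice. Spem1 was higher in sperm except in control sperm replicate 3. It was at 114.67, 28.49, 0 and 63.4 FPKM in control sperm replicates 1 to 4. Cadmium sperm had 39.97 and 17.65, and testes 6.25 to 7.43. Smcp and Gapdhs overlapped between sperm and testes. The markers thus went both ways, and the list as a whole did not set sperm above testes. Of 7 meiotic markers, 7 were at 0 in control sperm replicates 2 to 4 and 6 were at 0 in both cadmium sperm, against 1 in each testes group. Sycp3 was at 3.18 FPKM in cadmium sperm replicate 1, within its 0.97 to 4.65 in testes. The summed level of the 7 was thus 0 to 3.18 in cadmium sperm, which overlapped the 2.67 to 5.35 of cadmium testes, and was 4.98 to 7.24 in control testes. The summed level of the 5 Leydig cell markers was 2.96 to 27.49 FPKM in control sperm, 3.47 to 5.59 in cadmium sperm and 14.72 to 20.9 in testes, with Star, a cholesterol carrier of steroidogenic cells, at 27.49 in control sperm replicate 3. Insl3, a defining Leydig marker, was at 0 in the sperm libraries. The 6 epididymal markers were at 0 in control sperm replicates 2 to 4, and Crisp1 alone was listed in cadmium sperm (summed level 2.31 to 2.5). The 5 leukocyte markers summed to 0 to 0.62 FPKM in control sperm, 1.7 to 4.85 in cadmium sperm and 2.54 to 3.84 in testes. The 4 epithelial markers (4.17 to 12.97 in control sperm, 7.48 to 7.95 in cadmium sperm, 5.96 to 8.86 in testes) and the 6 Sertoli cell markers (0 to 4.26, 3.23 to 9.69 and 2.18 to 4.97) had summed levels in sperm that overlapped those in testes. The 6 spermatogonia markers summed to 0.43 to 3.73 FPKM in control sperm, 0.56 to 1.39 in cadmium sperm and 20.08 to 28.04 in testes. In testes nearly all of this was Gfra1. Of 4 blood markers 1 was listed, Alas2, at 0 to 2.22 FPKM in sperm and 0.2 to 0.92 in testes. The part of other cells in the results below was not tested.

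The promoters of 4 of the genes described below are shown because these genes were called in both treatments: Hnrnpa0 and Srsf9 are 2 of the 3 genes called higher in sperm in both, and Snrpf and Prpf39 are 2 of the 6 called lower. These genes and the motifs were chosen after their values were seen. Each sequence is 150 bases from 170 to 21 bases upstream of the promoter's start site, 5′ to 3′ on the gene's strand, from RefSeq's GRCm38.p6. For Srsf9 that start site is not the first base of the gene span given below. Capitals mark motifs found on either strand. The letters searched were GGGCGG for the GC box, CCAAT for the box of that name, TGACG for the core of the cyclic AMP response element (CRE core), CACGTG for the E-box and TGCGCA for the core of the NRF1 motif. The letters CCGGAA of ETS factors, and TATAAA of the TATA box, were searched too and are not in these windows.
Hnrnpa0: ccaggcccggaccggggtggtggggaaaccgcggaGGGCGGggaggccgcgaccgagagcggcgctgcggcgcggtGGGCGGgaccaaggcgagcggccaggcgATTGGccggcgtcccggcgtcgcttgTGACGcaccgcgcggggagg
Srsf9: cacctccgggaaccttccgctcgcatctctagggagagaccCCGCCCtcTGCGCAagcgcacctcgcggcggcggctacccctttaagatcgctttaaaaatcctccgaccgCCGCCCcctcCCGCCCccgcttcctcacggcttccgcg
Snrpf: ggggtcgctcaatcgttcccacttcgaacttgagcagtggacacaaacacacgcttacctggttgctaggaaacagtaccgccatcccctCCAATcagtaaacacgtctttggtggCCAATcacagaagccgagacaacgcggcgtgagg
Prpf39: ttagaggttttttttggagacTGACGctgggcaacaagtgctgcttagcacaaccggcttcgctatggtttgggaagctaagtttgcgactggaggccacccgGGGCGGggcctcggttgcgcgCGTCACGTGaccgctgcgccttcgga
The windows are chr13:58128577-58128726 on the minus strand for Hnrnpa0, chr5:115327007-115327156 on the plus strand for Srsf9, chr10:93589679-93589828 on the minus strand for Snrpf and chr12:65036164-65036313 on the plus strand for Prpf39. The window of Hnrnpa0 was 80% G and C, with 2 GC boxes, 1 CCAAT box and 1 CRE core. That of Srsf9 was 68% G and C, with 3 GC boxes and 1 NRF1 motif. That of Snrpf was 54.7% G and C, with 2 CCAAT boxes. That of Prpf39 was 60% G and C, with 1 GC box, 2 CRE cores and 1 E-box, which overlaps a CRE core.
RefSeq promoters were found for 87 of the 104 genes (110 promoters, each searched from 250 bases upstream to its start site). A GC box stood in 55.5% of them and in 32.7% of all 32851 promoters of the table. A CCAAT box stood in 44.5% against 33.8%, a CRE core in 39.1% against 17.8%, an ETS motif in 36.4% against 12%, an NRF1 motif in 20% against 6.43%, an E-box in 10.9% against 6.02% and a TATA box in 10% against 12.4%. The median G and C content was 59.6% in the promoters of these genes and 52.4% in all promoters, and the shares were not adjusted for it. Promoters of one gene overlap, so these shares are a description.

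How many of the genes carried RNA in each sample came first. A gene was listed where its expected count was above 0. Control sperm replicates 2, 3 and 4 listed 55, 15 and 29 of the 104 genes, and replicate 1 listed 20. Cadmium sperm listed 59 and 58, control testes 84 and 86, and cadmium testes 78 and 85. The numbers were in the order of depth among control sperm libraries. After thinning of every sample to the smallest total (means of 20 draws), control sperm replicates 2 to 4 held 42.6, 15 and 28.4 genes, cadmium sperm 45.3 and 43.9, control testes 52.1 and 54.3, and cadmium testes 51.8 and 56.4. Testes thus listed more of these genes than sperm at equal total counts too, by a narrower margin, and the sperm libraries still differed among themselves. The known mRNA share of the total was not matched by thinning, and was 9.14 to 10.7% in control sperm, 10.5 to 13.6% in cadmium sperm and 11.3 to 12.1% in testes. All known mRNA genes narrowed alike, from 1552 to 6733 listed in control sperm replicates 2 to 4, 7556 to 7829 in cadmium sperm and 11537 to 12250 in testes, to 1546 to 4703, 5026 to 5448 and 6084 to 6536 after thinning.

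**Figure D1:**
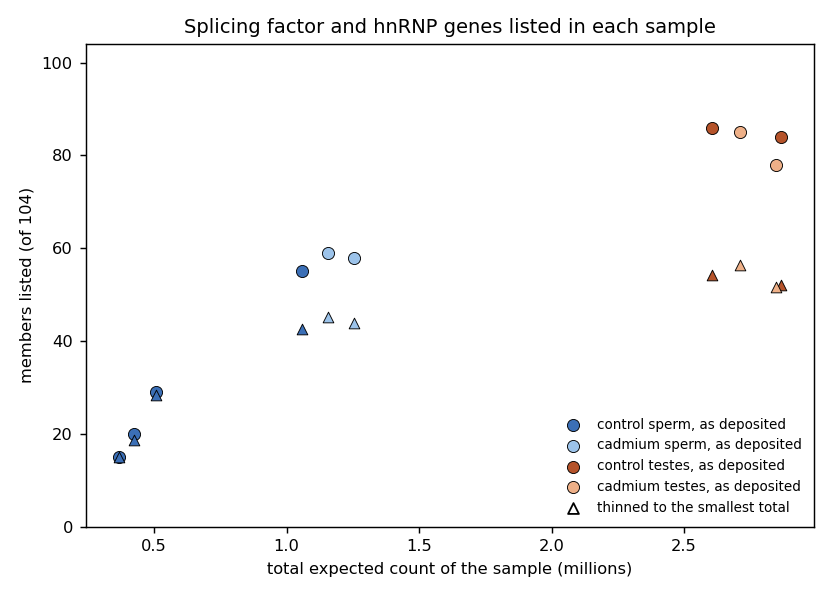
Number of the 104 splicing factor and hnRNP genes listed in each sample (vertical axis) against the total expected count of the sample (horizontal axis). Circles are samples as deposited, from 15 genes in control sperm replicate 3 to 86 in control testes replicate 2, and triangles are means of 20 draws thinned to the smallest total.

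Only 7 genes were listed in all 10 samples, namely Hnrnpa0, Hnrnpd, Hnrnpf, Hnrnpu, Rbm12b1, Srsf1 and Srsf2. With replicate 1 set aside, Hnrnpa3, Rbm15, Rbm7 and Srsf9 were also in each of the 5 sperm libraries. In those 5 libraries 28 genes were at 0. In testes 61 genes were in every sample, and 3 (Prpf4, Rbm24 and Rbm41) were in none. For 51 genes, the expected count stayed under 10 in each of the 10 samples, so few fragments were counted on their known mRNA transcripts. Fragments counted on predicted or noncoding transcripts of the same places in the genome were not looked at. Core components were among the 51 genes: Prpf8, the central U5 protein, had at most 0.42 FPKM in any sample, and Sf3b1, the branch point protein of SF3B, at most 0.54.

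Together the genes held 1.07% ± 0.08 (SD, n = 3) of known mRNA FPKM in control sperm, 1.07% ± 0.15 (n = 2) in cadmium sperm, 1.40% ± 0.28 (n = 2) in control testes and 1.29% ± 0.20 (n = 2) in cadmium testes. By expected counts the shares were 1.18%, 1.17%, 1.01% and 0.985%, so the order of sperm and testes turned with the measure. In both tissues a few genes held most of this level, the 5 highest taking 56.5 to 68.1% in sperm replicates in the main tests and 60.4 to 73.5% in testes. The genes differed, with Hnrnpa0, Srsf2 and Hnrnpu leading in 4 of those 5 sperm libraries and Snrpf, Srsf2 and Rbm12b1 in each testes sample.

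The roles held different parts of that level in the tissues. hnRNPs took 42.6% ± 9.48 (SD, n = 3) of the summed FPKM of the set in control sperm and 51.5% ± 1.30 (n = 2) in cadmium sperm, against 14.1% ± 3.37 and 14.3% ± 5.66 in testes. SR proteins took 29.2% ± 3.76 and 26.5% ± 1.56 in sperm, against 13.3% ± 0.73 and 15.7% ± 2.0 in testes. Snrp proteins, in testes nearly all of it Snrpf, took 46.2% ± 9.56 and 41.2% ± 12.2 in testes and 7.53% ± 4.16 and 3.99% ± 0.73 in sperm. In control sperm replicate 3 Snrpf was at 0 and Snrpa was the whole Snrp level. Rbm proteins took 19.1% ± 3.18 and 20.9% ± 2.69 in testes, and 13.5% ± 9.42 and 8.74% ± 0.09 in sperm. Prpf proteins took 4.43 to 6.98% of the level in the group means, SF3A and SF3B 0.434 to 2.19% and U2AF 0.650 to 1.31%. Shares of a sum move together, so a high share of one role lowers the others.

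**Figure D2:**
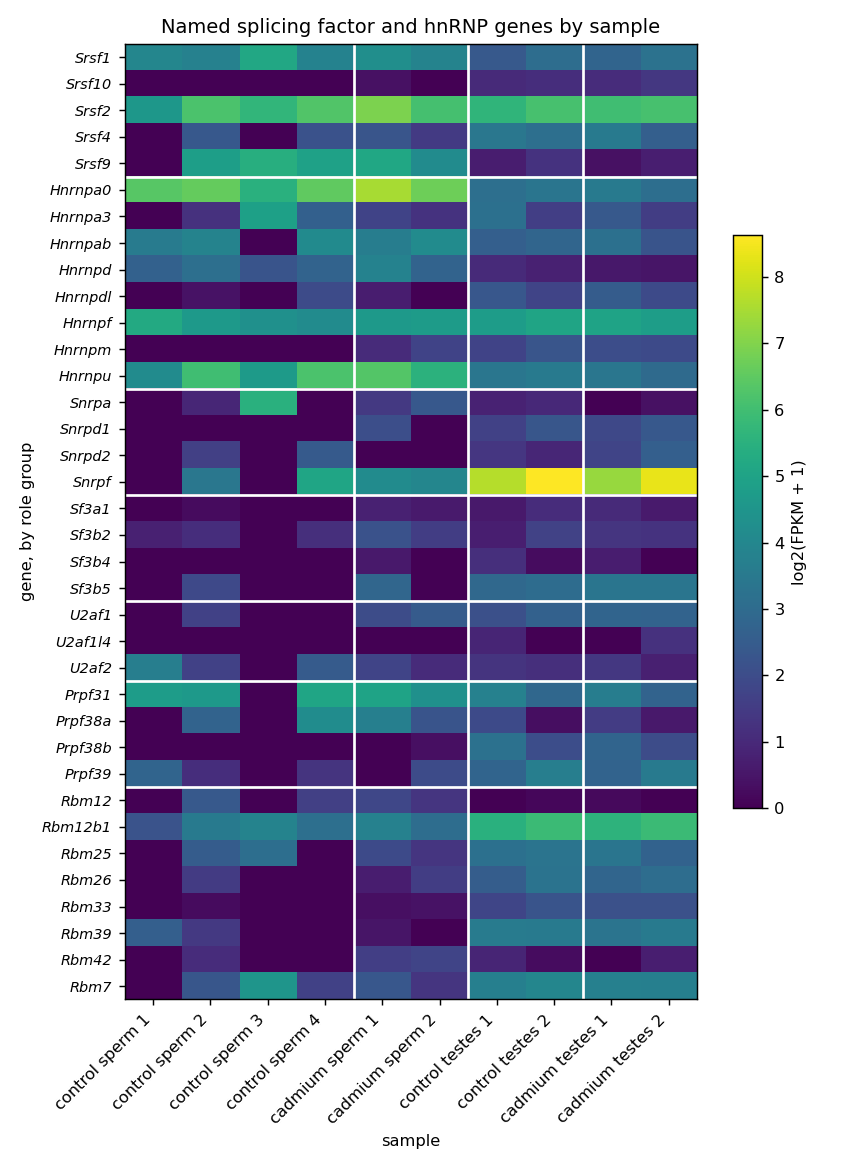
Level of 36 named genes as log2(FPKM + 1), with samples in columns and genes in rows by role. Hnrnpa0 and Hnrnpu are high in the sperm columns, Snrpf and Rbm12b1 in the testes columns, Srsf2 and Hnrnpf in both, and control sperm replicate 3 has 0 in many rows.

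The first comparison was of sperm with testes in control mice, which the study also set side by side for levels and qPCR. The study's own lists of differentially expressed genes came from sperm against round spermatids of other data, which are not among these samples. Relative to the other RNA of a library, Hnrnpa0, Hnrnpu, Srsf9 and Rbm24 were called higher in sperm. Snrpf, Prpf38b, Prpf39, Rbm12b1, Rbm33, Rbm39, Hnrnpm, Snrpd1 and Srsf10 were called lower. Amounts per cell were not measured. Of the 104 genes, 49 reached 1 FPKM in at least 2 samples and were tested, and edgeR's quasi-likelihood test called 13 of them (26.5%). A call needed more than a 2-fold difference together with a Benjamini-Hochberg adjusted p under 0.05. The background was 21.8 percent of all 24432 genes tested and 24.3 percent of known mRNA genes, so the share was near it. By direction, 4 were higher against a background of 4.15 percent and 9 lower against 17.6 percent. This balance rested on control sperm replicate 3, without which 6 were higher and 7 lower (1748 and 2566 over all genes in place of 1013 and 4306), and it moved with thinning, after which 2 were higher and 2 lower (635 and 750). The median log2 fold change of the 49 genes was -0.997, beside -1.24 for all genes tested, and a change of 0 on this scale is thus above the typical gene. After thinning the medians were -0.14 and -0.78. In bulk samples fewer cells of a type and less RNA per cell cannot be told apart. Of the called genes, Rbm24 was at 0 in control testes and passed the 1 FPKM filter through sperm alone. Hnrnpm, Prpf38b, Rbm33, Snrpd1 and Srsf10 were under 1 FPKM in control sperm and passed it through testes alone. The filter thus set the direction of these genes. The calls rested on single libraries: leaving out control sperm replicate 2 left 5 genes called and replicate 4 left 1. Over all genes the calls fell likewise, from 5319 to 2044 and 973. Without testes replicate 1 or 2 the medians were -0.92 or -0.72, beside -0.75 or -1.06 for all genes. Fewer genes were called in those fits, of these and of all. Snrpf was called in each of the 5 fits with 1 library left out.

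In cadmium mice the same comparison, on other samples, called 20 of 50 genes tested (40%), against 31.7 percent of all 25779 genes and 39.7 percent of known mRNA genes. Here 10 were higher, against 16.2 percent of all genes, and 10 lower, against 15.4 percent. The median was -0.38, beside -0.30 for all genes. Its sign rested on cadmium testes replicate 1, without which the medians were 0.30 and 0.030. Without cadmium sperm replicate 1 or 2 the median was -0.54 or -0.15, beside -0.60 or -0.47 for all genes. Each fit with 1 cadmium library left out called fewer of these genes and fewer of all genes. Hnrnpa0, Prpf38b, Rbm33, Rbm39 and Snrpf were called in each such fit that tested them. On FPKM (limma on log2(FPKM + 1)), 6 genes were higher and 9 lower, and over all genes 2822 were higher and 4969 lower in place of 4180 and 3981. The 1 FPKM filter set the direction of called genes that were under 1 FPKM in both samples of a tissue. Hnrnpd, Rbm12, Rbm42, Snrpa and Srsf9 thus passed it through sperm alone. Hnrnpdl, Prpf38b, Rbm33 and Rbm39 passed it through testes alone.

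The control and cadmium comparisons share no sample. Of 46 genes tested in both, 36 (78.3%) had the same sign, beside 79.8% of all genes and 83.2% of known mRNA genes. The genes called in both were 9, which is 69.2% of the control calls and 45% of the cadmium calls, beside 59.2% and 35.1% for known mRNA genes and 56.6% and 36.9% for all genes. Each of the 9 had the same direction, as had 99.7% of all genes called in both. Hnrnpa0, Hnrnpu and Srsf9 were higher in sperm, and Prpf38b, Prpf39, Rbm12b1, Rbm33, Rbm39 and Snrpf were lower.

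**Figure D3:**
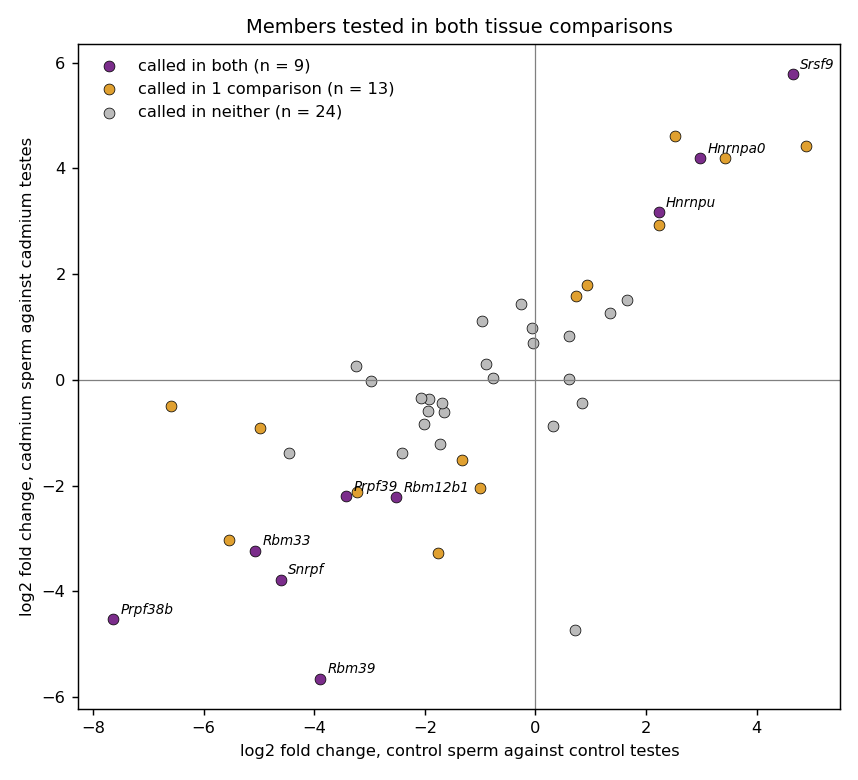
Log2 fold change of sperm against testes for the 46 genes tested in both treatments, in control mice (horizontal axis) and in cadmium mice (vertical axis). The 9 genes called in both (purple, named) lie at the lower left and the upper right, 13 were called in 1 comparison (orange) and 24 in neither (grey).

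Among hnRNPs, Hnrnpa0 had the highest level in sperm. It is an intronless gene whose protein, of the A/B family, binds AU-rich elements of mRNA, and its RefSeq span (chr13:58125879-58128556) equals its transcript of 2678 bases. Hnrnpa0 was at 94.74, 43.48 and 92.04 FPKM in control sperm replicates 2 to 4 and 181.86 and 104.88 in cadmium sperm, while testes had 7.92 and 9.16 (control) and 10.64 and 7.69 (cadmium). Every sperm library, replicate 1 at 82.92 included, was above every testes sample. Its log2 fold change was 2.98 ± 0.78 (SE) in control mice and 4.19 ± 0.63 in cadmium mice (edgeR, adjusted p = 0.00695 and 1.11e-09). The control call was lost without control sperm replicate 2 or 4 or testes replicate 1.

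Hnrnpu encodes a large nuclear protein that binds chromatin and RNA. It stood at 62.62, 24.79 and 72.25 FPKM in control sperm, 9.48 and 10.55 in control testes, 79.79 and 45.62 in cadmium sperm and 9.37 and 6.90 in cadmium testes. Again no sperm library overlapped testes (replicate 1 at 16.83). The log2 fold changes were 2.23 ± 0.76 and 3.17 ± 0.58 (edgeR, adjusted p = 0.0447 and 1.17e-06). In control mice the call was lost in 4 of the 5 fits with 1 library left out, and stayed without control sperm replicate 3. It was also lost with DESeq2 and limma, and the cadmium call was lost without testes replicate 1.

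Hnrnpd, whose product AUF1 is known for the decay of AU-rich mRNAs, had lower levels with the same order. It was at 7.81, 3.73 and 5.66 FPKM in control sperm, 1.04 and 0.74 in control testes, 13.23 and 5.74 in cadmium sperm and 0.48 and 0.39 in cadmium testes. The sperm and testes values did not overlap in either treatment. It was called in cadmium mice (log2 fold change 4.62 ± 0.66, edgeR, adjusted p = 1.18e-10) and not in control mice (adjusted p = 0.121), and without cadmium testes replicate 1 the cadmium call was lost. Hnrnpab, a related A/B-type protein, was called higher in cadmium sperm (1.58 ± 0.57, edgeR, adjusted p = 0.0230), with 11.64 and 17.11 FPKM against 8.02 and 3.75. In control sperm Hnrnpab was at 13.52, 0 and 16.57 FPKM, which overlapped the 5.07 and 6.01 of testes. The call of Hnrnpab was kept in 1 of 4 fits with 1 library left out (that without cadmium sperm replicate 1) and in 3 of 9 other alternatives.

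The other hnRNPs described were called lower in sperm or not called. Hnrnpdl, a paralog of Hnrnpd, was called lower in cadmium sperm (-3.28 ± 1.08, edgeR, adjusted p = 0.0111), at 0.63 and 0 FPKM against 4.66 and 2.86, a call lost without cadmium sperm replicate 2. Hnrnpm, a regulator of alternative exons, had 0 counts in control sperm replicates 1 to 4 and 2.35 and 3.88 FPKM in control testes. Against a floor of 3 counts over the group it was at least 4.71-fold lower in control sperm, and it had 1.09 and 2.34 FPKM in cadmium sperm. Its call was lost without control sperm replicate 2 or 4. Hnrnpf, which binds G-rich sequence, was at 17.07 to 25.44 FPKM in the 5 sperm libraries and 26.09 to 31.73 in testes, while replicate 1, at 36.78, was above both. Its log2 fold changes were -0.76 ± 0.82 and 0.03 ± 0.53, with no call. Hnrnpk and Hnrnpc, abundant proteins in somatic nuclei, had at most 1.24 and 0.43 FPKM in any sample. Hnrnpa1 and Hnrnpa3 have processed copies elsewhere in the genome with which counts may be shared, so their values are uncertain.

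Among SR proteins, Srsf2 had the highest level in each group and did not part the tissues. It was at 71.14, 49.94 and 77.83 FPKM in control sperm, 48.85 and 68.11 in control testes, 119.58 and 67.28 in cadmium sperm and 61.91 and 68.88 in cadmium testes. Sperm and testes overlapped in both treatments, and the log2 fold changes were -0.05 ± 0.69 and 0.70 ± 0.54. Its span overlaps Mfsd11.

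Srsf9, a small SR protein of alternative splicing (chr5:115327163-115333843, overlapping Gatc), showed the opposite. It was at 27.67, 41.67 and 29.73 FPKM in control sperm, 0.62 and 1.38 in control testes, 34.53 and 17.00 in cadmium sperm and 0.31 and 0.66 in cadmium testes. No value of the 5 sperm libraries came near those of testes, while control sperm replicate 1 had 0. Testes counts were 1 to 4 fragments a sample and sperm counts 17 to 45. The log2 fold changes were 4.65 ± 1.45 and 5.78 ± 0.85 (edgeR, adjusted p = 0.0272 and 4.33e-10). With replicate 1 added, Srsf9 was no longer called in control mice, nor without control sperm replicate 4 or either testes replicate. The cadmium call was lost without testes replicate 1.

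Srsf1, the prototype SR protein, had no call in either treatment (1.35 ± 0.82 and 1.26 ± 0.54, edgeR, adjusted p = 0.235 and 0.0582). Its FPKM was 12.87, 35.3 and 13.11 in control sperm, 18.4 and 13.39 in cadmium sperm, 4.34 and 7.56 in testes of control mice and 5.84 and 8.53 in those of cadmium mice. Sperm and testes did not overlap. Srsf4 was at 9.6 and 7.8 FPKM in control testes, 4.24, 0 and 3.54 in control sperm, with no call. Srsf10, known as a splicing repressor in mitosis and heat shock, had 0 counts in control sperm and 10 and 9.78 in control testes, and was called at least 2.33-fold lower, a call lost without any one of control sperm replicates 2 to 4. Srsf3, an SR protein abundant in dividing cells, was at 0.14 and 0.60 FPKM in control testes and 0 in the other 8 samples.

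**Figure D4:**
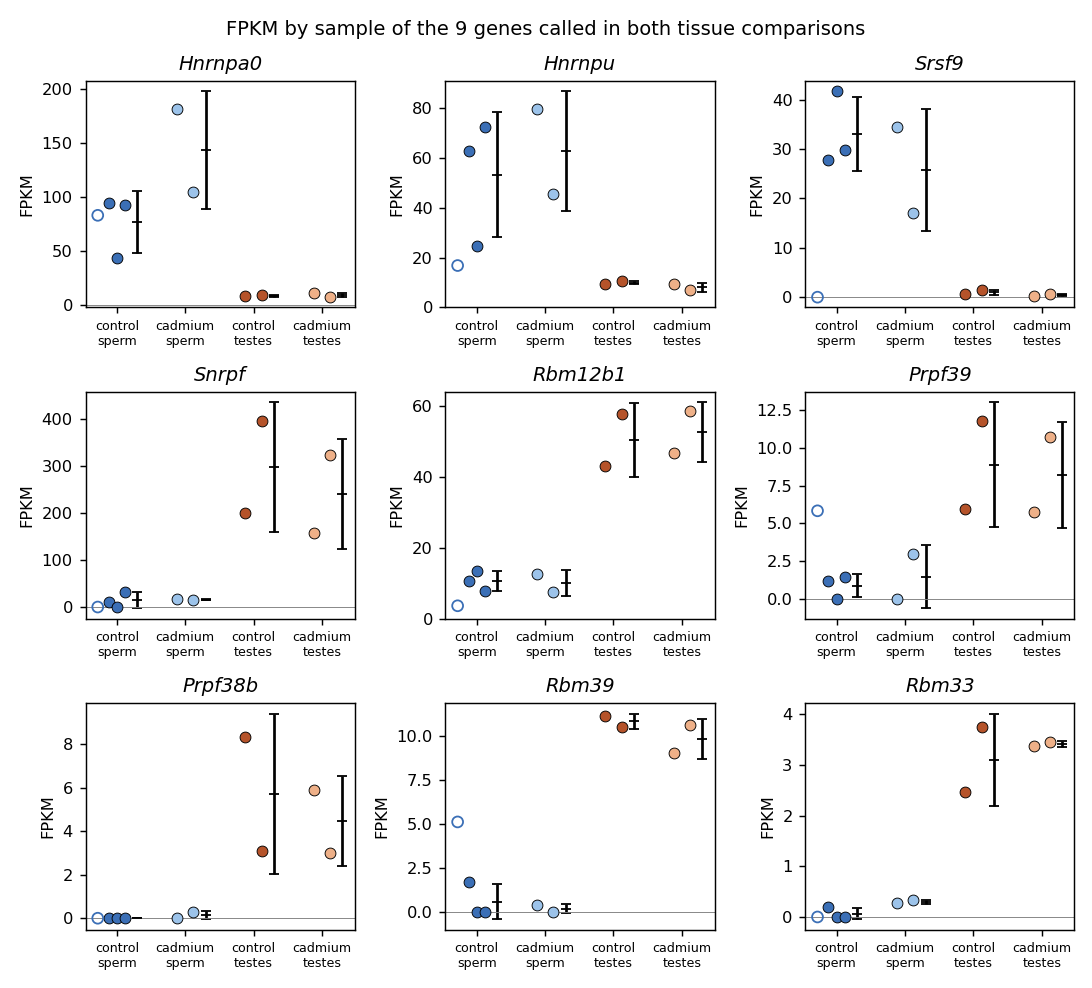
FPKM of the 9 genes called in both tissue comparisons, by group. Filled points are samples, bars are the mean ± SD of the samples in the main tests, and the open point is control sperm replicate 1. Sperm lies above testes for Hnrnpa0, Hnrnpu and Srsf9 (replicate 1 of Srsf9 at 0 excepted) and below testes for the other 6, with replicate 1 of Prpf39 at 5.83.

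Snrpf encodes Sm protein F of the ring on spliceosomal small nuclear RNAs (chr10:93583029-93589658), and it was the highest of the 104 genes in testes. It was at 200.93 and 395.38 FPKM in testes of control mice and 157.84 and 323.67 in those of cadmium mice, against 9.75, 0 and 33.06 in control sperm and 16.72 and 14.42 in cadmium sperm. The lowest testes value was above every sperm library, and replicate 1 had 0. The log2 fold changes were -4.61 ± 0.83 and -3.78 ± 0.62 (edgeR, adjusted p = 3.34e-05 and 3.34e-08). In control mice limma did not call it (adjusted p up to 0.181). The span overlaps those of Ccdc38 and 4933408J17Rik, and as the strand setting of the counting is not given in the sources used here, reads of overlapping genes cannot be told apart. In both treatments testes replicate 2 was near a doubling of replicate 1.

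The other Snrp genes described were low, apart from Snrpa in control sperm replicate 3. Snrpd1 was at 2.2 and 3.9 FPKM in control testes and 0 in control sperm (at least 1.53-fold lower against the floor) and at 3.24 and 0 in cadmium sperm. The control call of Snrpd1 was lost without any one of the 3 control sperm libraries. Snrpd2 was at 0.88 and 1.58 FPKM in control testes and 2.11, 0 and 4.4 in control sperm, on 1 or 2 fragments a sample. Snrpa, the A protein of the U1 particle, was called higher in cadmium sperm (4.21 ± 1.31, edgeR, adjusted p = 0.00656) on 2.44 and 7 counts against 0 and 1.07, a call lost without either cadmium testes replicate. In control sperm Snrpa was at 0.91, 43.12 and 0 FPKM, so replicate 3 alone carried its level, and its span overlaps BC024978.

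None of the tested SF3 and U2AF genes was called between tissues. Sf3b5, a small SF3B subunit, was at 6.59 to 9.21 FPKM in testes and 0 to 6.21 in the 5 sperm libraries. Sf3b2 was at 0.65 to 2.28 FPKM in testes and 0 to 3.5 in those sperm libraries, and Sf3a1 and Sf3b4 stayed at or under 1.23. U2af1, the small subunit that contacts the AG of the 3′ splice site, was at 3.28 to 5.94 FPKM in testes and 2.17, 0, 0, 2.98 and 4.59 in sperm. U2af2, the large subunit, was at 0.69 to 1.63 FPKM in testes and 2.19, 0, 4.56, 2.4 and 1.11 in sperm. U2af1l4, a paralog of U2af1, had at most 3 counts. Sperm and testes overlapped for U2af2, and the counts behind the U2AF values were at most 14.53.

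Among Prpf genes both directions occurred. Prpf39 (chr12:65036334-65063386), the mammalian form of a U1-associated yeast factor, was at 5.95 and 11.78 FPKM in testes of control mice and 5.74 and 10.69 in those of cadmium mice, against 1.17, 0 and 1.46 in control sperm and 0 and 2.95 in cadmium sperm. The 5 sperm libraries were below testes, and replicate 1 was at 5.83. Its log2 fold changes were -3.43 ± 1.27 and -2.20 ± 0.65 (edgeR, adjusted p = 0.0477 and 0.00401). With 1 library left out, the control call was kept in 1 of 5 fits (that without control sperm replicate 3) and the cadmium call in 1 of 4 (that without cadmium sperm replicate 2), and limma called it in neither treatment. Prpf38b, a relative of the spliceosomal protein Prpf38a, had 71 and 24 counts in control testes and 0 in the control sperm libraries, at least 11.2-fold lower against the floor, a call lost without control sperm replicate 2 or 4. It had 0 and 1 count in cadmium sperm against 50 and 24 in cadmium testes (log2 fold change -4.53 ± 1.17, edgeR, adjusted p = 0.000849).

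Prpf31, which joins the U4/U6 and U5 particles, was called higher in cadmium sperm (1.80 ± 0.55, edgeR, adjusted p = 0.00572), with 31.04 and 19.02 FPKM against 11.72 and 5.74, a call lost without either testes replicate. In control mice it was at 24.07, 0 and 32.37 FPKM in sperm and 12.78 and 6.34 in testes, and the 0 of replicate 3 made the groups overlap. Prpf38a, by contrast with Prpf38b, was called higher in cadmium sperm (2.92 ± 0.84, edgeR, adjusted p = 0.00317), on 21 and 7 counts against 8 and 2, and of the 4 fits with 1 library left out, that without cadmium sperm replicate 2 kept its call.

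Among Rbm genes, Rbm12b1 had the most RNA in testes. It was at 43.1 and 57.76 FPKM in testes of control mice and 46.7 and 58.61 in those of cadmium mice, against 10.71, 13.45 and 7.84 in control sperm and 12.72 and 7.43 in cadmium sperm. No sperm library, replicate 1 at 3.62 included, overlapped testes. The log2 fold changes were -2.52 ± 0.74 and -2.22 ± 0.57 (edgeR, adjusted p = 0.0187 and 0.000702). The control call was lost without control sperm replicate 2 or 4 or testes replicate 2, and the cadmium call without cadmium sperm replicate 2 or testes replicate 1. Rbm12b2 is its close copy, and counts may be split between them.

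Rbm39, a cofactor with a domain like that of U2AF, was at 11.17 and 10.55 FPKM in testes of control mice and 9.04 and 10.66 in those of cadmium mice. In sperm it was at 1.73, 0 and 0 FPKM in control mice and 0.4 and 0 in cadmium mice, while replicate 1 had 5.13. The log2 fold changes were -3.89 ± 1.41 and -5.65 ± 1.02 (edgeR, adjusted p = 0.0477 and 6.63e-07). The control call was lost without control sperm replicate 4 or either testes replicate. Rbm33 was at 2.46 to 3.75 FPKM in testes and 0 to 0.33 in sperm, with log2 fold changes of -5.07 ± 1.55 and -3.23 ± 0.73 (edgeR, adjusted p = 0.0238 and 0.000104), the first lost without control sperm replicate 4.

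Rbm25, Rbm26 and Rbm7 were called lower in sperm of cadmium mice and were not called in control mice, with cadmium log2 fold changes of -1.51, -2.12 and -2.05 (edgeR, adjusted p = 0.0480, 0.00803 and 0.0157). These calls were often lost: with 1 cadmium library left out, Rbm25 was called in 0 of 4 fits, Rbm26 in 1 (without sperm replicate 2) and Rbm7 in 1 (without sperm replicate 1), and of 9 other alternatives 1, 4 and 4 kept them. Rbm7 is a subunit of the nuclear exosome targeting complex, and it reached 21.65 FPKM in control sperm replicate 3, above the 12.09 and 14.61 of control testes. Rbm12 and Rbm42 were called higher in cadmium sperm (4.42 ± 1.13 and 2.85 ± 1.15, edgeR, adjusted p = 0.000693 and 0.0436), on at most 11 and 5 counts a sample, and both calls were lost without either testes replicate. Rbm12 shares its span with Cpne1. Rbm24, a regulator of muscle splicing, was outside the rule for named genes and is given because it was called in control mice. It had 5, 0 and 3 counts in control sperm, 3 and 5 in cadmium sperm and 0 in the 4 testes samples. Against the floor it was at least 7.55-fold higher in control sperm. That call, whose direction the filter set, was lost without either testes replicate.

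Over the 5 sperm libraries and 4 testes samples, 6 genes had every sperm value above every testes value, which is 5.77% of the set beside 2.54% of known mRNA genes. They were Hnrnpa0, Hnrnpd, Hnrnpu, Rbm15, Srsf1 and Srsf9, of 3 hnRNPs, 2 SR proteins and 1 Rbm gene. In the other direction 23 genes (22.1%) had every sperm value below every testes value, beside 19.4% of known mRNA genes.

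Whether other splicing genes moved alike was looked at with a list of 110 spliceosome and splicing regulator genes that the name rule does not take. In control mice 42 were tested and 6 called, with 1 higher (Cwc22) and 5 lower. This was 14.3%, beside 21.8% of all genes and 24.3% of known mRNA genes, and the median was -1.37, beside -1.24 for all genes. In cadmium mice 43 were tested and 11 called, with 8 higher and 3 lower. That was 25.6%, beside 31.7% of all genes and 39.7% of known mRNA genes, and the median was -0.35, beside -0.30 for all genes. Cwc22, a factor that deposits the exon junction complex, was higher in both (3.99 ± 1.07 and 3.09 ± 0.60), and Zrsr1, a U2AF1-related gene, was lower in both (-6.37 ± 1.13 and -4.47 ± 0.67, edgeR, adjusted p = 2.58e-05 and 1.32e-09). Dhx15, a helicase that takes the spliceosome apart, was also lower in both.

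The second question was what cadmium did within each tissue. In testes 0 of 50 tested genes were called by edgeR, 0 had an unadjusted p under 0.05, and 0 were called by DESeq2 or limma, beside 0.015 percent of all 26721 genes. The lowest log2 fold change was -1.14, the highest 1.63 and the median 0.02, where all genes had 0.01. With 1 library left out the median of these genes was -0.25 to 0.33. The values of abundant genes were Srsf2 0.20 ± 0.50 (SE), Hnrnpf 0.03 ± 0.47, Rbm12b1 0.12 ± 0.51, Snrpf -0.25 ± 0.58 and Hnrnpa0 0.13 ± 0.49. Errors of this size leave changes near 2-fold undetectable in this design of 2 samples against 2. Among the other splicing genes edgeR called 0 of 45, and 0 had an unadjusted p under 0.05.

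In sperm 0 of 43 tested genes were called, 2 had an unadjusted p under 0.05, and the background was 0.0678 percent of all 20635 genes. The median log2 fold change was 0.24, beside 0.43 for all genes (0.13 and 0.27 with DESeq2's size factors). The sign of the median was not stable: it was 0.010 without control sperm replicate 3, -0.083 after thinning and -0.13 over genes with at least 10 counts in 2 samples, while all genes had 0.18, 0.33 and 0.15. The 2 genes were Hnrnpa3, at 1.37, 28.74 and 5.27 FPKM in control sperm and 2.3 and 1.42 in cadmium sperm, and Hnrnpm, at 0 in control and 1.09 and 2.34 in cadmium sperm (edgeR, adjusted p = 0.553 for both). Hnrnpm was called in limma on log2(FPKM + 0.1) (adjusted p = 0.0257), a scale on which 1158 of the 1160 calls over all genes were higher. DESeq2 called 0. Hnrnpa0 had a log2 fold change of 0.88 ± 0.51, with the 2 cadmium sperm (181.86 and 104.88) above the 3 control sperm, and was not called. Hnrnpu (0.21 ± 0.53), Srsf2 (0.50 ± 0.57) and Srsf9 (-0.28 ± 0.95) differed by about their errors or less. Among the other splicing genes edgeR called 0 of 38, and 0 had an unadjusted p under 0.05.

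The edgeR test of whether the cadmium effect differed between sperm and testes, which is also the test of whether the tissue difference changed with cadmium, called 0 of 61 tested genes, with 2 at an unadjusted p under 0.05 (Hnrnpm and Rbm3), beside 0.0396 percent of all 32810 genes. DESeq2 and limma also called 0 of the 61. Rbm3, a cold-inducible RNA-binding protein, was at 1.1, 19 and 0 FPKM in control sperm, 0.8 and 0 in cadmium sperm, 0.12 and 0.90 in testes of control mice and 0.72 and 3.76 in those of cadmium mice, so control sperm replicate 3 carried its level.

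Which transcript of a gene held the counts was looked at in the 18 genes with at least 2 known mRNA transcripts. In 71 pairs of a gene and a sample with at least 10 counts, 54 (76.1%) had more than 95% of the counts on 1 transcript. For 6 genes (Hnrnpa2b1, Hnrnpab, Hnrnpd, Hnrnpf, Prpf31 and Srsf1) that transcript was not the same in every sample. These are estimates of a counting tool whose treatment of shared reads is not given in the sources used here.

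Prpf31 had its counts wholly on 1 of 2 transcripts in each sample that listed it. NM_027328 (3142 bases) held them in control sperm replicate 1, cadmium sperm replicate 1 and control testes replicate 1, with 35, 112 and 114 counts. NM_001159714 (3124 bases) held them in the other 6 samples that listed the gene. Replicates of one group thus fell on different transcripts.

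The transcripts of Srsf1 parted the tissues in cadmium mice. NM_001078167 held 69 and 103.25 counts in testes of control mice and 92 and 128 in those of cadmium mice, with 0 to 5.75 on NM_173374. In cadmium sperm NM_173374 held 114 and 90 counts and the other transcript 0. Control sperm replicates 1 to 4 had 0, 45.82, 69 and 0 counts on NM_173374 and 34, 28.18, 0 and 37 on NM_001078167, so they lay on both sides. Tested as single transcripts, NM_001078167 of Srsf1 was the 1 member transcript called between cadmium and control sperm, lower (edgeR, adjusted p = 0.0399), while the gene as a whole did not pass.

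Hnrnpf lay mainly on NM_001166431 in control sperm (17 to 61 counts) and was divided in testes, where NM_001166430 held 80.24, 40.75, 80.91 and 0 counts. Cadmium sperm replicate 1 had its 69 counts on NM_001166430 and replicate 2 its 78 on NM_001166431. Hnrnpd lay on NM_001077267 in control sperm and cadmium sperm replicate 1, on NM_007516 in cadmium sperm replicate 2 (48 counts), on NM_001077265 and NM_001077266 in control testes, and on NM_001077267 in cadmium testes (9.02 and 7 counts). Hnrnpab lay wholly on NM_010448 in the sperm libraries that listed it, while NM_001048061 held 30.2, 0, 32.3 and 70.8% of its counts in the testes samples. Hnrnpa3 was on NM_053263 in each sample with at least 10 counts.

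**Figure D5:**
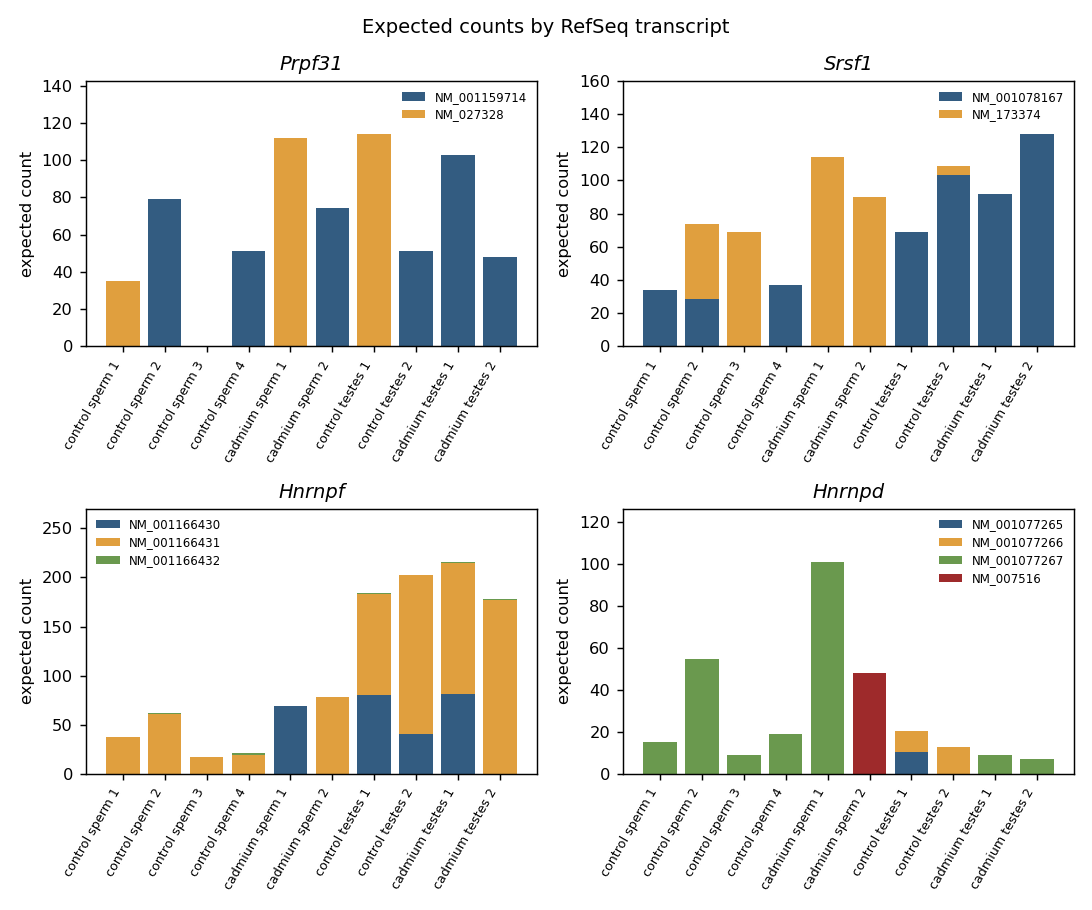
Expected counts of the transcripts of Prpf31, Srsf1, Hnrnpf and Hnrnpd in each sample, stacked by transcript (colours). Counts of Prpf31 change transcript between replicates of a group, and counts of Srsf1 lie on NM_001078167 in testes and on NM_173374 in cadmium sperm.

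By position, all 104 symbols matched RefSeq genes of GRCm38.p6. The spans of 40 overlap another annotated gene. Among genes called in both treatments, these also include Hnrnpu (Cox20), Prpf39 (Gm25970 and Fkbp3), Rbm12b1 (Gm11843) and Rbm33 (Gm35602). Among genes called in cadmium mice, they include Hnrnpab (Phykpl) and Prpf38a (Orc1). Reads of the overlapping genes cannot be told apart there either. The span equals the transcript length, as in a gene of 1 exon, for Hnrnpa0, Rbm31y and Sf3b5.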

How the data were processed

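RNA-seq of 10 mouse samples (4 control sperm, 2 cadmium sperm, 2 control testes, 2 cadmium testes) was read from 1 table per sample. According to the methods the authors removed adaptors, empty and low-quality reads and aligned with SOAPaligner/SOAP2. The submitters' processing notes name HISAT and mm10. The counting tool and its strand setting are not given in the sources used here. The deposited expected counts are estimated fragments for each transcript, without normalization. The deposited FPKM were divided by transcript length and by library size. The tables list transcripts above 0, and the rest were taken as 0. For 32 transcripts with a second gene name in some tables (spreadsheet dates), the first listing was used.

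Expected counts and FPKM were summed by gene within a transcript class. Counts were rounded and tested with edgeR 4.0.16 (quasi-likelihood, TMM, R 4.3.3) over genes that reached 1 FPKM in 2 or more of the compared samples, with Benjamini-Hochberg adjustment over all of them. A gene was called at an adjusted p under 0.05 and more than 2-fold. The difference of the cadmium effect between tissues was called on the adjusted p alone. An SE is the log2 fold change divided by the square root of F. Derived from the test, it does not describe the spread of samples. Total counts of 366455 to 2866856 per sample limit the precision. Control sperm replicate 1 was added as an alternative. Other alternatives were DESeq2 1.42.0, limma 3.58.1, other filters, thinning, single transcripts, a replicate block and leaving out each library. The test was checked on simulated data. Summaries used Python 3.11.15, numpy 2.4.6, pandas 2.3.3 and matplotlib 3.10.9.

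Genes were named by these rules: the 4 highest per role by mean FPKM of the groups, called genes whose groups did not overlap (up to 10 per direction), the 6 highest in sperm, and up to 5 with several transcripts. Members and lists were chosen with earlier results of these data known. Positions and promoters come from RefSeq (GRCm38.p6), since the tables hold no coordinates.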

Additional observations from a re-analysis of the deposited data

Results flagged for a closer look

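Levels of the genes in the 4 control sperm libraries (replicate 1 included) were checked for 1 sample far from the other 3. Of 38 genes that could be checked, 9 had such a sample. The usual rate of about 1 in 20 assumes normal values. It does not apply here, since a gene at 0 in 3 libraries is flagged by construction. In control sperm replicate 3, Snrpa was at 43.12 FPKM and Srsf1 at 35.3, while the next highest replicates were at 0.91 and 14.46. In replicate 4, Hnrnpdl was at 2.89 FPKM beside 0.35 or less in the others. The remaining 6 of the 9 were listed in replicate 2, the deepest of the 4 libraries, and were at 0 in the other 3. They were Sf3b5 at 2.71 FPKM, U2af1 at 2.17, Rbm26 at 1.85, Rbm42 at 1.13, Rbm33 at 0.2 and Sf3a1 at 0.19. The counts behind these 6 were 1 to 8 fragments. More genes of the set, outside the 38, had the same pattern, such as Rbm15b at 3.79 FPKM and Hnrnpul1 at 2.65. The part of depth in them was not tested.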

How the results depend on the processing

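Over the alternatives run for the 33 log2 fold changes of called genes, 278 values stayed past the threshold, 173 no longer passed it and 0 changed sign. Of the 123 values of named genes that were not called, over the 5 comparisons, 77 changed sign under at least 1 alternative, and no direction is read from them. Between sperm and testes in control mice, 13 genes were called, 2 without a filter on low levels, 4 after thinning, and 1 to 13 when 1 control sperm library was left out. Over all genes these numbers were 5319, 1344, 1385 and 973 to 4314. More were called with DESeq2's size factors (14), in 1 model of 9 samples (15) and on single transcripts (17). Over the whole set these were 5641, 5257 and 6144. In cadmium mice, 20 were called, 12 by DESeq2, 12 by limma on log2(FPKM + 0.1), 10 after thinning and 10 in 1 model of 9 samples. Over all genes these were 8161, 4949, 6268, 3780 and 4275. With known mRNA genes alone in the fit 25 were called, beside 2265 of the 5080 genes tested. Fewer were called when 1 library was left out, of these genes and of all. The cause was not tested, beyond the fewer samples or counts in such fits. With 1 library left out, the lone sample of a testes or cadmium group is assumed to vary like the others. Between cadmium and control sperm, 0 were called, and 1 by limma on log2(FPKM + 0.1) or on single transcripts, and 0 when 1 library was left out, as in testes.

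The numbers of genes listed, 85 in control testes, 58.5 in cadmium sperm and 81.5 in cadmium testes as means, fell to 62.5, 43.5 and 63.5 at a minimum of 3 counts and to 53.2, 44.6 and 54.1 after thinning, which removes counts by construction. The share of the genes in known mRNA FPKM (1.07, 1.40, 1.07 and 1.29% in control sperm, control testes, cadmium sperm and cadmium testes) was 1.18, 1.01 and 0.985% by expected counts in control sperm, control testes and cadmium testes, and 0.0592, 0.0928, 0.0768 and 0.0839% of all FPKM. Leaving out libraries for these means was chosen after seeing the data.

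Replicate numbers are shared by groups, but the labels do not say that they pair samples, and no comparison has 3 pairs. Same-numbered samples deviated together with r = 0.496 across 26721 genes between cadmium and control testes, 0.103 between cadmium sperm and testes, -0.060 between control sperm and testes and -0.046 between cadmium and control sperm. With the number as a block, 21 genes were called between cadmium sperm and testes (Rbm42 and Snrpa no longer), 0 between cadmium and control testes and 0 between cadmium and control sperm. Over all genes the block called 6892 between cadmium sperm and testes in place of 8161, and 72 between cadmium and control testes in place of 4. With the block, replicates 1 and 2 alone and thus control sperm replicate 1 added, 3 were called between control sperm and testes.

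Depth limits what can be said of the 51 genes under 10 counts in each sample.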
